A study of Mus musculus with 6 samples.

Results

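The genes described are 32 lysosomal genes, namely hydrolases other than Gaa and the cathepsins B to Z, with their activator proteins and the genes that tag or activate the enzymes. They were taken from the deposited read counts by gene symbol, and all 32 were found among its 24421 symbols. Their RNA was compared between shGAA libraries (n = 3) and shScrambled libraries (n = 3) of C2C12, a line of mouse myoblasts whose cells fuse to form myotubes once serum is lowered. The shGAA cells had received a lentivirus with a short hairpin RNA against Gaa, which encodes the acid alpha-glucosidase that digests glycogen in lysosomes. The shScrambled cells (shscrambled in the labels) had received a scrambled hairpin instead. Per the labels' protocols, both groups were grown in 10% fetal bovine serum, selected with puromycin and differentiated in 2% horse serum with 4.5 g/l glucose. Titles of both groups carry the word Fed, which is not explained. The number of hairpin sequences is not given, nor whether the libraries of a group come from separate cultures, so the p-values reflect the spread among these libraries alone, and that spread may be technical.

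Lysosomal hydrolases are made in the endoplasmic reticulum and reach the lysosome through the Golgi, where a phosphotransferase (Gnptab, Gnptg) begins their mannose-6-phosphate tag and receptors (M6pr, Igf2r) carry them on. In the lysosome, most act from the end of a chain, so glycosaminoglycans, glycoprotein glycans and glycosphingolipids are taken apart one residue after another, and loss of a single enzyme lets its substrate build up in a storage disease. Sulfatases work only after Sumf1 has converted a cysteine in their active site. Many of these genes are known targets of TFEB and its relatives, which bind a CACGTG-containing promoter sequence.

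The libraries held 9224038 to 10430270 counts in shGAA and 9475245 to 9918142 in shScrambled. Gaa had 47.5 to 51.9 CPM (read counts scaled for library size) in shGAA, against 106 to 124 CPM in shScrambled. The groups did not overlap, and edgeR's quasi-likelihood test gave -1.25 ± 0.07 on the log2 scale (± SE here and below, 3 libraries in each group, adjusted p = 1.09e-09). Myotube markers were counted in all libraries. The 23 marker genes found summed to 2721 to 2961 CPM in shGAA and 3732 to 4243 CPM in shScrambled. Of 21 tested, 16 fell, where 19.7% of all tested genes did. Most of the sum came from Des, with means of 1664 CPM in shGAA and 2047 CPM in shScrambled. Some others were scarce, such as Ckm at 6.35 CPM in shGAA and 12.1 CPM in shScrambled. The sum therefore does not measure how far the cells had formed myotubes. Des, at -0.30 ± 0.04, had the smallest of the 16 falls. Among other abundant markers, Actn3 had means of 131 CPM in shGAA and 289 CPM in shScrambled (-1.14 ± 0.05). Acta1 had 276 CPM in shGAA and 453 CPM in shScrambled (-0.71 ± 0.08). Ttn and Myh4 were above 0 and did not pass. All 20 cell cycle genes listed fell, again against 19.7% of all tested genes. Their sums were 2004 to 2185 CPM in shGAA against 2838 to 3115 CPM in shScrambled. The 14 leukocyte and macrophage markers summed to 23.8 to 27.1 CPM in shGAA and 38.3 to 46.6 CPM in shScrambled, with Itgam, Tyrobp and Cd3e among those at 0 in all libraries and 2 of 3 tested lower. The 8 endothelial markers summed to 4.39 to 5.44 CPM in shGAA and 2.67 to 5.15 CPM in shScrambled (Tie1, Emcn and Cldn5 at 0; 1 of 2 tested higher and 1 lower), and the 6 adipocyte markers to 0.320 to 0.409 CPM in shGAA and 0.107 to 0.537 CPM in shScrambled (Plin1, Cidec, Lep and Cfd at 0; none tested). The part of these shifts in the values below was not tested, and in bulk RNA fewer cells of a type and less RNA per cell cannot be told apart. The library shScrambled 1 stood apart, since its counts differed from those of the other controls by 5.87 and 5.31 (chi-square divided by its degrees of freedom), where other pairs within a group gave 1.95 to 2.54.

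More of the hydrolase genes were higher than lower in shGAA. All 32 passed the filter on low counts, and 18 rose, 3 fell and 11 did not pass the test at an adjusted p under 0.05, while 38.2% of all tested genes passed in either direction. The share that rose was 56.2%, where 18.5% of all 11801 tested genes did, and the share that fell was 9.38%, where 19.7% of all tested genes did. In 19 of the 32 genes every shGAA library was above every shScrambled library, and in 3 every one was below, while 24.7% of all tested genes were separated upward and 24.9% downward, or 49.6% in all. The changes were small. The median log2 fold change was 0.21, against 0.0050 over all tested genes. Of the 32 values, 25 were above 0, where 5998 of all 11801 were. Rises went up to 1.35 on the log2 scale in Idua and, leaving that weakly expressed gene aside, to 0.73 in Arsb, while the lowest value was -0.30 in Galns. When only library size was used for scaling, 22 rose and 2 fell, while 23.8% of all tested genes rose and 15.9% fell. The higher share of all calls was then 60.0%, against 48.4% with the main scaling. Leaving out 1 library at a time gave 15 to 20 rises and 1 to 4 falls, the 1 fall without shGAA 3.

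**Figure D1:**
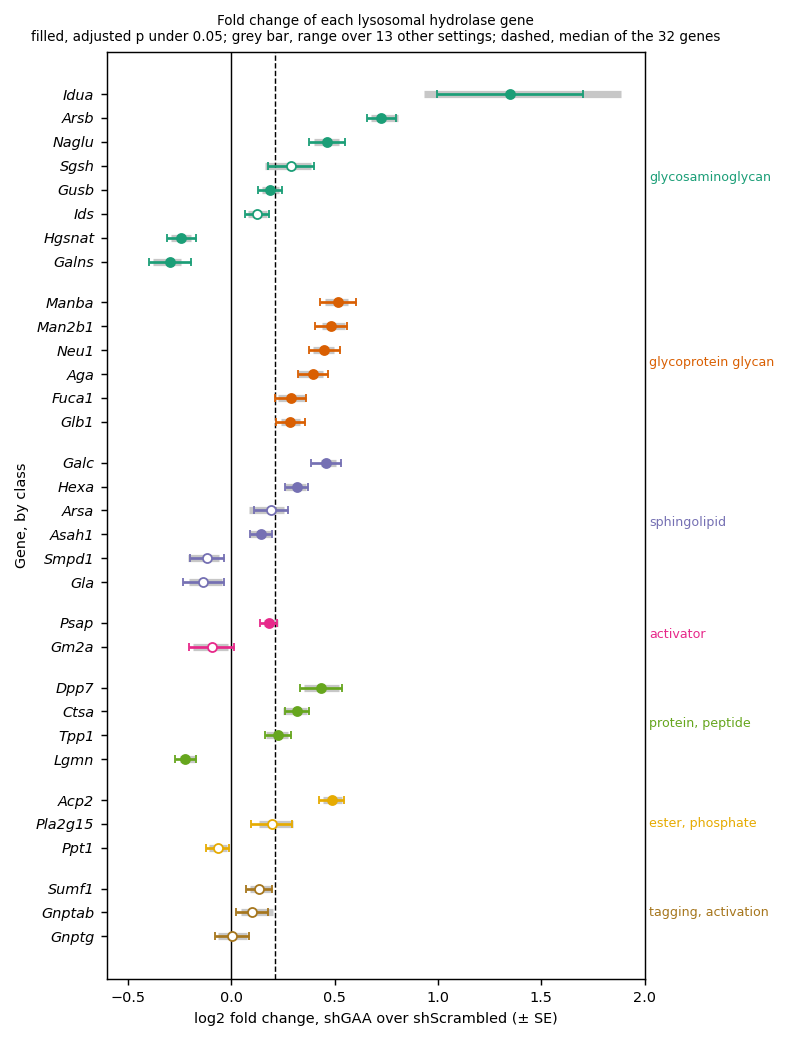
Log2 fold change of shGAA over shScrambled (points, with SE bars, n = 3 libraries per group) for the 32 genes by class, filled where the adjusted p is under 0.05, with the range over 13 other processing settings in grey. The 6 glycoprotein glycan genes all lie between 0.29 and 0.52, and the 3 genes below 0 that pass the test are Galns, Hgsnat and Lgmn.

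Promoter sequence is known to carry the CACGTG element of TFEB targets, so it was searched here. RefSeq promoter windows on GRCm38.p6, from 250 bases before to 50 bases after each annotated start, were at hand for 28 of the 32 genes (not Aga, Asah1, Galns and Hgsnat). The letters CACGTG, which read the same on both strands, were in a window of 10 of the 28 genes, or 35.7%, against 11.9% of the 9016 tested genes with a window. In all 10 the match was also one to TCACGTG on either strand. This longer form contains CACGTG and was in 7.08% of tested genes with a window. Among the other lysosomal hydrolase and sorting genes described below, only 3 of 24 with a window held CACGTG, or 12.5%. The difference between the lists was not tested. Further, 2 longer palindromes centred on CACGTG were searched. The shorter was in 5 of the 28 genes (17.9%), against 2.31% of tested genes with a window. The longer was in 0 of the 28, against 0.854%, and is too rare to compare. The 10 genes with CACGTG were Naglu, Glb1, Dpp7 and Ctsa, which rose, Lgmn, which fell, and Arsa, Gla, Gnptg, Sgsh and Sumf1, which did not pass. Among genes with a window, 4 of 16 that rose and 5 of 11 that did not pass held the letters. The median log2 fold change was 0.24 in the 10 genes with the letters and 0.26 in the 18 without them. The windows of Ctsa and Lgmn that matched belong to one of 2 annotated starts of each gene. The matches of 4 genes with different outcomes are printed, chosen because their stretches overlap no annotated exon, 5′ to 3′ on the gene's strand, with the match in capitals. They lie at chr9:114401003-114401061 (plus strand) for Glb1, chr2:25356373-25356432 (minus strand) for Dpp7, chr12:102439110-102439168 (minus strand) for Lgmn and chr6:108185584-108185621 (minus strand) for Sumf1, and the match begins 49, 74, 50 and 12 bases before the start in that order.
Glb1 (rose): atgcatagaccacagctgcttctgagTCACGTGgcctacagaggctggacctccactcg
Dpp7 (rose): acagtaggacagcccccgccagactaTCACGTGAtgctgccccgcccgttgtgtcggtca
Lgmn (fell): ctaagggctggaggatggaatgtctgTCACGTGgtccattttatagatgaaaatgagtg
Sumf1 (did not pass): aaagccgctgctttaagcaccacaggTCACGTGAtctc
The letters in these windows are a description and say nothing of binding in these cells. Of the transcription factor genes themselves, Tfeb had 10.2 to 11.2 CPM in shGAA and 10.5 to 11.7 CPM in shScrambled, at -0.04 ± 0.13 on the log2 scale (adjusted p = 0.846). Tfe3 had 63.0 to 75.8 CPM in shGAA and 76.1 to 83.8 CPM in shScrambled, at -0.17 ± 0.07 (adjusted p = 0.0674). Its call depended on the libraries and genes used, as it passed as lower in the unfiltered table (adjusted p = 0.0337) and when either shGAA 2 (0.0416) or shScrambled 1 (0.0237) was left out. Mitf was at -0.16 ± 0.14 (adjusted p = 0.388), and Tfec had no count in any library.

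The 6 genes grouped here as enzymes that dismantle the sugar chains of glycoproteins formed the one class of the 7 in which every gene rose. Of all tested genes, 18.5% rose. The classes were drawn up with earlier results of these data known, so this holds for the 6 genes placed in the class. The 6 rises ran from 1.22-fold in Glb1 to 1.43-fold in Manba, and none of their calls was lost in any of 13 other settings. Manba encodes the beta-mannosidase that removes the last mannose of the core (chr3:135485611-135571404). It had 32.7, 33.5 and 32.3 CPM in shGAA 1 to 3, against 24.2, 20.9 and 23.6 CPM in shScrambled 1 to 3. The groups were far apart relative to their spread, and the log2 fold change was 0.52 ± 0.09 (adjusted p = 0.000174). Man2b1, the lysosomal alpha-mannosidase, had 52.7, 47.7 and 50.7 CPM in shGAA and 34.7, 34.0 and 39.5 CPM in shScrambled, a rise of 0.48 ± 0.08 (adjusted p = 0.000105). Neu1, the sialidase that takes off terminal sialic acid, had 51.1, 48.2 and 47.1 CPM in shGAA and 33.1, 36.3 and 37.8 CPM in shScrambled, a rise of 0.45 ± 0.07 (adjusted p = 0.000147). Every shGAA library lay above every control for both genes. Aga, which cuts the bond between glycan and asparagine, had 63.5, 59.0 and 60.5 CPM in shGAA against 41.6, 49.0 and 48.5 CPM in shScrambled, a rise of 0.40 ± 0.07 (adjusted p = 0.000367). Fuca1, the alpha-fucosidase, rose by 0.29 ± 0.08 (adjusted p = 0.00593) to 59.0 to 68.9 CPM in shGAA, against 48.6 to 56.9 CPM in shScrambled, a narrow gap. Glb1, the beta-galactosidase, which also acts on ganglioside GM1, rose by 0.29 ± 0.07 (adjusted p = 0.00378) to 50.7 to 57.3 CPM in shGAA, against 43.3 to 46.3 CPM in shScrambled. It shares 4.26% of its 50-base stretches with Tmppe, a gene overlapping it on the same strand, which was at 0.05 ± 0.09 (adjusted p = 0.702).

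**Figure D2:**
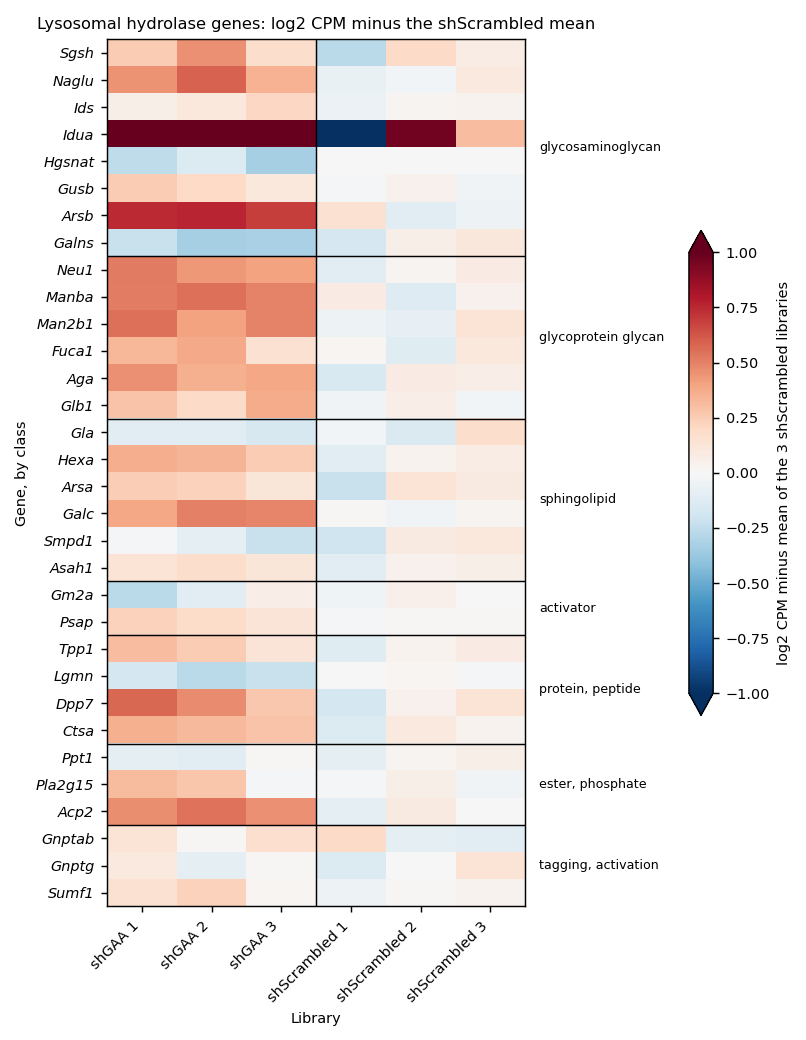
Log2 CPM of each gene in each library minus its mean over the 3 shScrambled libraries, by class (red higher, blue lower). The glycoprotein glycan block is red in all 3 shGAA libraries, Hgsnat, Galns and Lgmn are blue there, and Idua varies beyond the colour limits within shScrambled.

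Glycosaminoglycan enzymes changed in both directions. Of 8, Arsb, Idua, Naglu and Gusb rose, Hgsnat and Galns fell, and Sgsh and Ids did not pass. Over all tested genes, 18.5% rose and 19.7% fell. Arsb is the sulfatase that removes the 4-sulfate of dermatan and chondroitin sulfate (chr13:93771630-93943016). It had 73.9, 74.7 and 71.4 CPM in shGAA, against 49.1, 41.1 and 42.6 CPM in shScrambled. All 3 shGAA libraries were close together and well above the controls, with a rise of 0.73 ± 0.07 (adjusted p = 6.07e-07), or 1.65-fold. In GENCODE M21, 39.9% of its exonic bases are overlapped on the opposite strand by Gm26527 and Gm47210. Neither symbol has a row in the deposited counts. The use of strand in counting is not given, so reads from there cannot be assigned with certainty.

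Genes of the heparan sulfate pathway did not move as one. Idua, the alpha-iduronidase, which also acts on dermatan sulfate (chr5:108660331-108684557), had only 50, 57 and 73 counts in shGAA and 8, 36 and 23 in shScrambled. The control shScrambled 1 was far below the others, but no control reached an shGAA library. The ratio of summed counts, 180 against 67, was 2.65 with an exact binomial 95% interval of 1.99 to 3.56, which covers counting error only. The fitted rise was 1.35 ± 0.35 on the log2 scale (adjusted p = 0.0118). It was 0.93 without shScrambled 1 (adjusted p = 0.000930) and 1.88 without shScrambled 2, and it lost its call without shGAA 3 (1.24, adjusted p = 0.0581). Of its exonic bases 6.3% lie opposite exons of Dgkq and Slc26a1, of which Dgkq also rose, by 0.41 ± 0.11 (17.9 ± 0.720 CPM in shGAA and 13.5 ± 0.562 CPM in shScrambled, SD, n = 3 each), and Slc26a1 had no count. Naglu, the alpha-N-acetylglucosaminidase, had 35.1, 38.6 and 32.7 CPM in shGAA and 24.5, 25.2 and 27.4 CPM in shScrambled, a rise of 0.46 ± 0.09 (adjusted p = 0.000539) with no overlap.

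Hgsnat moved the other way. It encodes the membrane enzyme that acetylates the glucosamine which Naglu then removes (chr8:25944453-25976753). Hgsnat had 44.8, 48.5 and 42.4 CPM in shGAA, against 53.3, 53.4 and 53.5 CPM in shScrambled. The controls were almost equal, and all shGAA libraries lay below them (-0.24 ± 0.07, adjusted p = 0.0110). The call was lost without shGAA 3 (adjusted p = 0.0664). Sgsh, which removes the sulfate from the nitrogen of that glucosamine, had 34.1, 39.3 and 32.2 CPM in shGAA and 23.7, 32.6 and 30.1 CPM in shScrambled, at 0.29 ± 0.11 (adjusted p = 0.0552). Its groups overlapped through shScrambled 2 alone, and it passed without that library (adjusted p = 0.0145), when libraries were scaled by size alone (adjusted p = 0.0279) and in the unfiltered table (adjusted p = 0.00645). Card14, which lies opposite 21.6% of its exonic bases, had 0.708 ± 0.187 CPM in shGAA and 1.97 ± 0.0739 CPM in shScrambled. Ids, the iduronate sulfatase, was at 118 to 130.3 CPM in shGAA and 108 to 115 CPM in shScrambled, without overlap, but did not pass (0.13 ± 0.06, adjusted p = 0.0873) except when libraries were scaled by size alone (adjusted p = 0.0231). Gusb, the beta-glucuronidase, which acts on several of these chains, had 83.7 to 93.1 CPM in shGAA and 76.1 to 80.2 CPM in shScrambled and rose by 0.19 ± 0.06 (adjusted p = 0.0181). Its call ended without shGAA 1 (adjusted p = 0.0986), shGAA 2 (0.0600) or shScrambled 3 (0.0681) and in DESeq2 (0.0628).

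Galns, the sulfatase of keratan sulfate and chondroitin 6-sulfate (chr8:122578242-122611463), had the lowest fold change of all. It had 19.6, 18.2 and 18.3 CPM in shGAA, against 20.4, 23.8 and 24.8 CPM in shScrambled. The groups were separate, though shGAA 1 and shScrambled 1 came close. The fall was 0.30 on the log2 scale (-0.30 ± 0.10, adjusted p = 0.0306), and it was among the least secure calls. It ended without shGAA 2 (adjusted p = 0.0932), shGAA 3 (0.0941), shScrambled 2 (0.0841) or shScrambled 3 (0.122), in DESeq2 (0.101) and when libraries were scaled by size alone (0.0642).

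Of the sphingolipid hydrolases 3 of 6 rose and none fell, where 18.5% of all tested genes rose and 19.7% fell. Galc, which splits galactosylceramide, rose most, with 41.7, 45.3 and 44.7 CPM in shGAA and 32.2, 31.1 and 32.6 CPM in shScrambled. The spread within each group was small next to the gap, and the log2 fold change was 0.46 ± 0.07 (adjusted p = 0.000110). Hexa, the alpha subunit of the hexosaminidase that degrades ganglioside GM2, had 201, 197 and 186 CPM in shGAA and 144, 160.0 and 164 CPM in shScrambled, a rise of 0.32 ± 0.06 (adjusted p = 0.000300). Asah1, the acid ceramidase, rose by only 0.15 ± 0.05 (adjusted p = 0.0409), at 197 to 205 CPM in shGAA and 168 to 189 CPM in shScrambled. Leaving out any of the shGAA libraries ended that call (adjusted p = 0.0889 without shGAA 1, 0.142 without shGAA 2 and 0.0628 without shGAA 3). So did leaving out shScrambled 1 (0.140), and so did DESeq2 (0.0774) and a non-robust fit (0.0519). Arsa, the sulfatase of sulfatide, was at 0.19 ± 0.08 (adjusted p = 0.0781), with 59.6 to 64.9 CPM in shGAA and 47.0 to 60.0 CPM in shScrambled. It passed without shScrambled 2 (adjusted p = 0.0284), when libraries were scaled by size alone (0.0303) and in the unfiltered table (0.0228). Gla, the alpha-galactosidase of globotriaosylceramide, was at -0.13 ± 0.10 (adjusted p = 0.309), and Smpd1, the acid sphingomyelinase, at -0.12 ± 0.08 (adjusted p = 0.290). For both the groups overlapped. Smpd1 had 56.4 CPM in shScrambled 1 and 68.9 and 69.7 CPM in the other controls, against 64.3, 60.4 and 55.4 CPM in shGAA, and without shScrambled 1 it passed as lower (-0.21, adjusted p = 0.0105).

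The 2 activator genes differed. Psap, the precursor of the saposins that present sphingolipids to their hydrolases, had 1597, 1553 and 1494 CPM in shGAA, against 1347, 1374 and 1374 CPM in shScrambled. It made up 39.2% to 39.9% of the summed CPM of the 32 genes in shGAA and 39.1% to 40.6% in shScrambled. It rose by 0.18 ± 0.04 (adjusted p = 0.00204), or 1.13-fold. Gm2a, which lifts ganglioside GM2 to the hexosaminidase, was scarce, at 15.4, 17.2 and 19.5 CPM in shGAA and 17.98, 19.2 and 18.5 CPM in shScrambled, with overlapping groups (-0.09 ± 0.11, adjusted p = 0.530).

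All 4 genes for proteases passed the test, 3 as higher and 1 as lower, where 18.5% of all tested genes rose and 19.7% fell. Ctsa encodes cathepsin A, a carboxypeptidase that also protects Neu1 and Glb1. It had 266, 259.9 and 254 CPM in shGAA and 189, 223 and 213 CPM in shScrambled. The lowest shGAA library was above the highest control, and the rise was 0.32 ± 0.06 (adjusted p = 0.000295). Over 17.4% of its exonic bases lie exons of Neurl2 and Pltp on the other strand, with Pltp at 0.05 ± 0.06 (adjusted p = 0.537). Dpp7, a dipeptidyl peptidase, had 37.0, 34.4 and 29.9 CPM in shGAA and 21.99, 25.6 and 27.2 CPM in shScrambled, a rise of 0.44 ± 0.10 (adjusted p = 0.00256). Tpp1, a tripeptidyl peptidase, rose by 0.23 ± 0.06 (adjusted p = 0.00837) with 128 to 144 CPM in shGAA and 107 to 123 CPM in shScrambled, but not without shGAA 1 (adjusted p = 0.0567). Lgmn, an endopeptidase that cuts after asparagine (chr12:102394084-102439813), was the exception. It had 130.3, 122 and 126 CPM in shGAA, against 147, 149 and 145 CPM in shScrambled. The groups were apart, the fall was -0.22 ± 0.05 (adjusted p = 0.00259), and it was the one fall that stayed called in all 13 other settings.

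Among the remaining hydrolases Acp2, the lysosomal acid phosphatase (chr2:91202885-91214098), rose clearly. It had 89.1, 94.0 and 88.5 CPM in shGAA and 60.7, 68.5 and 64.6 CPM in shScrambled. The rise was 0.49 ± 0.06 (adjusted p = 9.03e-06), or 1.40-fold, and no setting changed the call. Ddb2, on the opposite strand over 12.6% of its exonic bases, also rose but was scarce, at 3.68 ± 0.405 CPM in shGAA and 2.22 ± 0.496 CPM in shScrambled (SD, n = 3 each). Pla2g15, a lysosomal phospholipase, was at 0.20 ± 0.10 (adjusted p = 0.127) and passed without shGAA 3 (0.30, adjusted p = 0.0302). Ppt1, which removes fatty acids bound to cysteines of proteins, was among the more abundant genes and was at -0.07 ± 0.06 (adjusted p = 0.382), with 149 to 162 CPM in shGAA and 151 to 167 CPM in shScrambled. Cap1, opposite 3.51% of the exonic bases of Ppt1, was more abundant, with means of 530 CPM in shGAA and 590 CPM in shScrambled. Cap1 was called lower (-0.15 ± 0.05, adjusted p = 0.0168).

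None of the 3 genes for tagging and activation passed the test, while 38.2% of all tested genes passed in either direction. Gnptab, the catalytic phosphotransferase precursor, had 83.2, 76.4 and 85.3 CPM in shGAA and 86.6, 71.4 and 70.4 CPM in shScrambled. The highest of the 6 was shScrambled 1. Its log2 fold change was 0.10 ± 0.08 (adjusted p = 0.327), and without shScrambled 1 it passed as higher (0.20, adjusted p = 0.00834). Gnptg, the gamma subunit, was at 40.0 ± 2.68 CPM in shGAA and 39.9 ± 3.86 CPM in shScrambled (SD, n = 3 each), a log2 fold change of 0.0039 ± 0.08 (adjusted p = 0.976). Its sign changed without shGAA 1 or shScrambled 1, and 49.5% of its exonic bases lie opposite exons of Unkl, itself at 0.18 ± 0.17 (adjusted p = 0.432). Sumf1 was at 0.14 ± 0.06 (adjusted p = 0.0991), with 74.9 to 86.5 CPM in shGAA and 71.3 to 75.7 CPM in shScrambled, and passed without shGAA 3 (adjusted p = 0.0345) and when libraries were scaled by size alone (adjusted p = 0.0284). Of the 5 sulfatases among the 32 genes that depend on it, Arsb rose, Galns fell, and Arsa, Sgsh and Ids did not pass.

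Of 33 other lysosomal hydrolase and sorting genes listed, 28 were tested, and 7 rose, 2 fell and 19 did not pass. The share that rose was 25%, where 18.5% of all tested genes did, and the share that fell was 7.14%, where 19.7% of all tested genes did. Of the 28 genes, 21 had a log2 fold change above 0, where 5998 of all 11801 tested genes did. Their median was 0.13, against 0.0050 over all tested genes. The groups were separated upward in 12 of the 28 and downward in 2, where 24.7% of all tested genes were separated upward and 24.9% downward. The difference between these genes and the 32 was not tested. Igf2r, the larger mannose-6-phosphate receptor, had 224, 240.2 and 231 CPM in shGAA and 169, 162 and 160.3 CPM in shScrambled, a rise of 0.50 ± 0.05 (adjusted p = 7.69e-07). M6pr, the smaller receptor, had 224 to 226 CPM in shGAA and 208 to 214 CPM in shScrambled, without overlap, but did not pass (0.09 ± 0.05, adjusted p = 0.121) except when libraries were scaled by size alone (adjusted p = 0.0208). Nagpa, which finishes the mannose-6-phosphate tag, was at -0.03 ± 0.11 (adjusted p = 0.860). Arsk, a glucuronate sulfatase, rose by 0.51 ± 0.13 (adjusted p = 0.00505), and Man2b2, an alpha-mannosidase, by 0.38 ± 0.07 (adjusted p = 0.000242). The 2 that fell were the carboxypeptidase genes Scpep1 (-0.39 ± 0.05, adjusted p = 1.61e-05) and Prcp (-0.32 ± 0.09, adjusted p = 0.00938), and Prcp lost its call without shGAA 3 (adjusted p = 0.0538).

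Summed over the 32 genes, the RNA was higher in every shGAA library. The sums were 4004, 3936 and 3815 CPM in shGAA, against 3320, 3492 and 3509.9 CPM in shScrambled, or 3918 ± 95.7 and 3441 ± 105 CPM (SD, n = 3 each). Without Psap they were 2407, 2383 and 2321 CPM in shGAA and 1973, 2119 and 2136 CPM in shScrambled. The groups did not overlap in either sum, nor in the sum of any of the 7 classes. The lowest control was shScrambled 1 in both sums. Relative to the mean of the other controls, 27 of the 32 genes were lower in shScrambled 1, with a median log2 difference of -0.10. Over all tested genes, 5846 of 11801 were lower, with a median of 0.0023. Of the other lysosomal hydrolase and sorting genes, 22 of the 28 tested were lower, with a median of -0.07. Without that library 18 of the 32 genes passed as higher and 4 as lower, but not the same genes, as Asah1 lost its call, Gnptab passed as higher and Smpd1 as lower. By class, the glycoprotein glycan sum ranged over 307 to 321 CPM in shGAA libraries and 231 to 249.6 CPM in controls. The tagging and activation sum was closer, at 200.2 to 208 CPM in shGAA and 186 to 194 CPM in shScrambled. Each of its 3 genes overlapped when taken alone. Of the activator sum, with means of 1565 CPM in shGAA and 1383 CPM in shScrambled, Psap made up 1548 and 1365 CPM. In the class of Acp2, Pla2g15 and Ppt1, only Acp2 was separated. A separate sum thus does not mean that every gene of its class rose. CPM is not corrected for length, so a sum is weighted towards long and abundant transcripts.

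**Figure D3:**
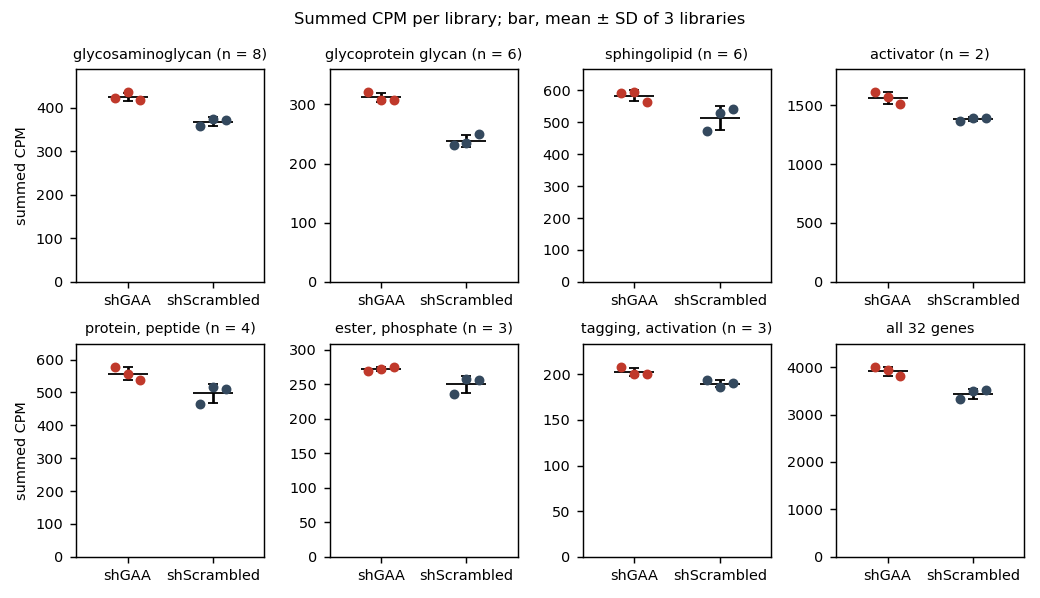
Summed CPM of each class and of all 32 genes in each library (points), with mean ± SD of 3 libraries, shGAA left of shScrambled. In every panel the 3 shGAA libraries lie above the 3 shScrambled libraries, and shScrambled 1 is lowest in the sum of all 32 genes.

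Per length, the genes spanned a wide range of levels. Levels were taken as CPM per kilobase of all annotated exonic bases of the gene in GENCODE M21, which understates genes with rarely used exons. Psap was at 564 ± 18.9 CPM per kilobase in shGAA and 497 ± 5.71 in shScrambled (SD, n = 3 each), followed by Hexa at 97.5 ± 3.84 in shGAA and 78.3 ± 5.26 in shScrambled. At the low end were Galc, at 2.95 ± 0.132 CPM per kilobase in shGAA and 2.15 ± 0.0490 in shScrambled, and Idua, at 1.43 ± 0.209 in shGAA and 0.566 ± 0.362 in shScrambled. The median gene was at 17.3 CPM per kilobase in shGAA and 14.8 in shScrambled. Of the 31 neighbouring pairs in the order of the controls, 21 overlapped across the 3 shScrambled libraries, so most of the order in the middle of the range is not resolved. Lgmn, at place 3 in shScrambled with 63.2 ± 0.684 CPM per kilobase, was at place 5 in shGAA with 54.2 ± 1.79, below Asah1 (59.1 ± 1.21) and Ctsa (55.1 ± 1.24). Its shGAA libraries, at 52.5 to 56.1, lay below those of Asah1, at 58.1 to 60.4. They overlapped those of Ctsa, at 53.9 to 56.4, so the order of Lgmn and Ctsa in shGAA is not resolved.

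**Figure D4:**
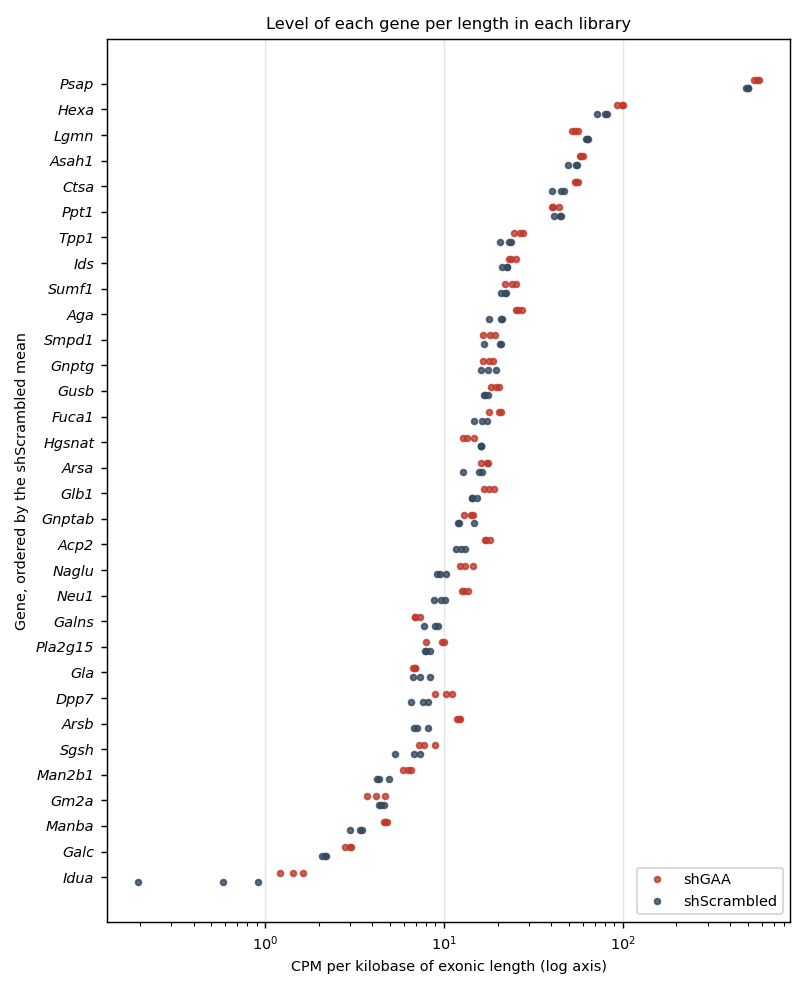
CPM per kilobase of exonic length (log axis) of the 32 genes in each of the 6 libraries, shGAA above shScrambled in each row, ordered by the shScrambled mean. Psap stands above all other genes, Idua is lowest with scattered controls, and many neighbouring genes overlap.

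Count ratios of genes whose products work together were separate between the groups for some pairs and overlapped for others. Ctsa, Neu1, Glb1 and Galns products are known to form a complex, and the first 3 genes rose while Galns fell. The ratio of Galns to Ctsa counts was 0.0738, 0.0702 and 0.0721 in shGAA, against 0.108, 0.107 and 0.116 in shScrambled. Every shGAA library was below every control. For Neu1 over Ctsa the ratio lay at 0.185 to 0.192 in shGAA libraries and 0.163 to 0.177 in controls, and that of Glb1 to Ctsa overlapped, at 0.195 to 0.226 in shGAA and 0.203 to 0.228 in shScrambled. For the consecutive heparan sulfate enzymes Hgsnat and Naglu, the ratio was 1.28, 1.26 and 1.30 in shGAA and 2.18, 2.11 and 1.95 in shScrambled, with a wide gap between the groups. The activator gene Gm2a relative to Hexa was at 0.0769, 0.0870 and 0.105 in shGAA and 0.125, 0.120 and 0.112 in shScrambled, so the groups were separate, though Gm2a alone did not pass. The ratio of Gnptab to Gnptg was 1.95 to 2.13 in shGAA, inside the range of 1.61 to 2.39 in shScrambled. Psap relative to Asah1 also overlapped, at 7.58 to 8.02 in shGAA and 7.28 to 8.02 in shScrambled. These pairs were chosen with the genes' values known, and the ratios were not tested. Galns and Hgsnat alone were already separated downward, and Ctsa and Naglu upward. The ratios Galns to Ctsa and Hgsnat to Naglu therefore had to separate and add nothing to the single genes.

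**Figure D5:**
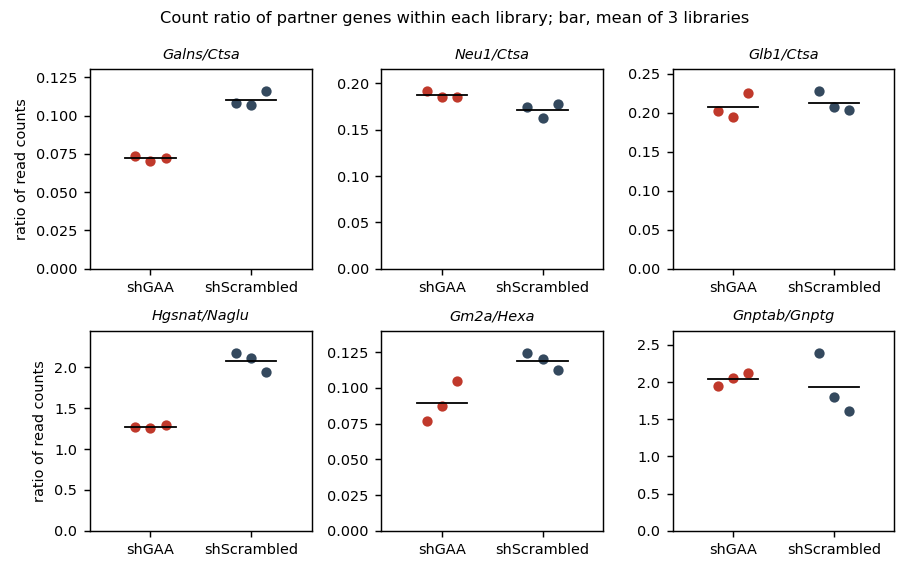
Ratio of read counts of partner genes within each library (points) with the mean of 3 libraries (bars), shGAA left of shScrambled, each axis from 0. Galns/Ctsa, Hgsnat/Naglu and Gm2a/Hexa are lower in every shGAA library, Neu1/Ctsa is slightly higher, and Glb1/Ctsa and Gnptab/Gnptg overlap.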

How the data were processed

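The authors deposited raw read counts per gene symbol as whole numbers, 1 column per library. The submitters' processing notes name build mm10, FastQC, HISAT2 2.1.0, Subread and edgeR. The sources used here do not give the annotation, the strand setting or the handling of multi-mapping reads. All tests were run on the whole table. filterByExpr (group) kept 11801 of 24421 symbols with at least 99.9% of the counts of each library, TMM gave factors of 0.980 to 1.02, and edgeR 4.0.16 (R 4.3.3) fitted robust quasi-likelihood models with group as the only term. P-values were adjusted by Benjamini-Hochberg over all tested genes and called at 0.05. Each fold change is shGAA over shScrambled on the log2 scale ± SE. CPM used TMM-scaled library sizes. Code was tested on simulated data. Alternatives used RLE factors, library size alone, no filter, DESeq2 1.42.0, limma-voom 3.58.1, a non-robust fit, a replicate block and each library left out. Members, classes, lists and partner pairs were chosen with earlier results of these data known. Genes named were the 32 members, Gaa, the TFEB family, up to 8 called genes of the other-gene list by size of change, and partner genes (among them Nagpa, M6pr and Igf2r), plus genes overlapping a member; some genes this rule takes are not reported here. GENCODE M21 (GRCm38, the build of mm10) gave positions and lengths. Of the 32 genes, 11 have exons opposite another gene, and 23 share no 50-base stretch with another gene.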

Additional observations from a re-analysis of the deposited data

How the results depend on the processing

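Of the 21 called genes among the 32, 15 (14 higher, 1 lower) kept their call and direction in all 13 alternatives, and 4 of the 11 uncalled genes were uncalled in all of them. Over the alternatives 15 to 22 of the 32 genes rose and 1 to 4 fell (1 to 4 falls also when 1 library was left out), and 1563 to 2809 of all tested genes rose and 1858 to 2514 fell. With library size as the only scaling, 1 glycosaminoglycan gene fell, 1 tagging and activation gene rose and 11 of the other lysosomal genes rose. With DESeq2, 1 glycosaminoglycan gene fell. Without the filter, edgeR gave some far smaller adjusted p-values at a similar SE. Gaa had 3.28e-80 at an SE of 0.064, against 1.09e-09 at an SE of 0.068 in the main fit. The calls that Sgsh, Arsa and Tfe3 gained in the unfiltered table therefore count for less. With 1 library left out, the falls among glycosaminoglycan genes ranged from 0 to 2, the falls among sphingolipid genes from 0 to 1, the rises among ester and phosphate genes from 1 to 2, the rises among tagging and activation genes from 0 to 1, and the falls among the other lysosomal genes from 1 to 3. Signs turned only in values near 0. With 1 library left out, Gnptg ranged from -0.0635 (without shScrambled 1) to 0.0767, with -0.04 without shGAA 1. Tfeb ranged from -0.0707 to 0.0113, and Nagpa from -0.131 to 0.0319, and with libraries scaled by size alone they were at 0.0113 and 0.0179. The replicate numbers in the titles showed no sign of pairing the libraries. Correlations of same-numbered libraries' deviations from their group means were -0.04, 0.06 and -0.01, and those of other-numbered libraries ran from -0.08 to 0.07. With 3 libraries in each group, such values cannot exclude a shared culture or batch. With the replicate block 2037 genes rose and 2197 fell, and 18 and 3 of the 32 genes did, with Asah1 losing its call (adjusted p = 0.0606) and Sgsh gaining one (adjusted p = 0.0279). The causes of these changes were not tested. Idua, with 8 to 73 counts per library, is the gene most limited by depth.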
